A study of Mus musculus with 12 samples.

Results

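Transcripts of the whole mouse eye at dusk were set against those at dawn. Dusk is the pair of circadian times (CT) CT10 and CT14, which lie on either side of the end of the subjective day. Dawn is the pair CT22 and CT2, on either side of its start. The comparison used 8 of the 12 libraries of the study, 4 at dusk and 4 at dawn, and each group held 2 libraries of each genotype. The libraries of CT6 and CT18 were left out of the tests, and their levels are given for orientation.

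The mice were males aged 12 weeks, either cKO (Cre-positive, with a retina-specific deletion of Nr3c1, the gene of the glucocorticoid receptor) or WT (Cre-negative). All had lived in a cycle of 12 h light and 12 h dark for 2 weeks and were sampled every 4 h on day 2 of constant darkness, without drug treatment. The dusk libraries were cKO at CT10, cKO at CT14, WT at CT10 and WT at CT14. The dawn libraries were cKO at CT22, cKO at CT2, WT at CT22 and WT at CT2. Each library was made from an even mix of the RNA of 3 mice, so each group rests on 12 mice. P-values reflect the spread between such pools, not between single animals. Each genotype had a single pool at each time. That spread thus also holds differences between times, or between genotypes in their course over time. The driver of Cre is not given in the sources used here, and every cKO mouse carried Cre while no WT mouse did. Nr3c1 stood at 38.8 to 49.6 CPM (counts scaled to a common library size) in the 6 cKO libraries and 55.4 to 75.9 CPM in the 6 WT libraries, and whole eyes hold tissue outside the retina where the gene stays intact.

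The protocols name whole eyes as the source, whereas the sample labels name the ciliary body and a cell line of its nonpigmented epithelium. Transcripts of several eye tissues were present in all 12 libraries. The rod arrestin gene Sag was at 2468 to 5153 CPM, the lens crystallin Cryaa at 12600 to 23020 CPM, the corneal keratin Krt12 at 1986 to 3294 CPM and the muscle actin Acta1 at 125 to 177 CPM. In such mixed tissue, fewer cells of a type and less RNA per cell cannot be told apart. Totals ran from 10466253 to 10686868 counts per library, and 15167 genes were tested.

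Cells keep circadian time through a transcription loop. The factors CLOCK (or NPAS2) and BMAL1, the product of Arntl, bind E-box sequences and switch on genes of their own repressors, the PER and CRY proteins, along with Dbp, the REV-ERB genes Nr1d1 and Nr1d2, and other factors that pass the rhythm on. REV-ERB and ROR proteins in turn set the level of Arntl. The mammalian retina holds such a clock of its own, known for daily rhythms of dopamine and melatonin release and of photoreceptor sensitivity.

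Promoter sequences are shown for Dbp and Arr3, which passed the dusk against dawn test. Sequences are also shown for the clock genes Per1 and Ciart, which did not pass it and were picked for a window that holds the E-box. Each is the run of 250 bases before an annotated start of the gene, 5′ to 3′ on the strand of the gene, from RefSeq windows on GRCm38.p6. Per1 has a second annotated start, whose window (chr11:69099902-69100151, not shown) holds none of the motifs searched, and the window of the other start is shown. Capitals mark the E-box CACGTG. The windows lie at chr7:45704997-45705246 on the plus strand for Dbp, chrX:100605247-100605496 on the plus strand for Arr3, chr11:69098699-69098948 on the plus strand for Per1 and chr3:95882229-95882478 on the minus strand for Ciart.
Dbp: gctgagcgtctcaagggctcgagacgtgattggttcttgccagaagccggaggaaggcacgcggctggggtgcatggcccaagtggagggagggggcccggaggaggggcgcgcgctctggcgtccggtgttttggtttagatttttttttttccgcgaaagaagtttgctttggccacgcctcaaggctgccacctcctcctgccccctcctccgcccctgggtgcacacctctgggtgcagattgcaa
Arr3: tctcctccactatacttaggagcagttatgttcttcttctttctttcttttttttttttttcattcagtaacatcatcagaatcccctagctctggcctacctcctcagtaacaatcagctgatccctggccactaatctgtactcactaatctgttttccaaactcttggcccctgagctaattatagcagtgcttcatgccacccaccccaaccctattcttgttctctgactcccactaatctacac
Per1: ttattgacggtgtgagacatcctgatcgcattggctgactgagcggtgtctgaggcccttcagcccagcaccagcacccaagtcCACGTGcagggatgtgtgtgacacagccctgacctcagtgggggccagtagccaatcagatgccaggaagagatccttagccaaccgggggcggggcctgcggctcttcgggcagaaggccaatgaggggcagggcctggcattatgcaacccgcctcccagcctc
Ciart: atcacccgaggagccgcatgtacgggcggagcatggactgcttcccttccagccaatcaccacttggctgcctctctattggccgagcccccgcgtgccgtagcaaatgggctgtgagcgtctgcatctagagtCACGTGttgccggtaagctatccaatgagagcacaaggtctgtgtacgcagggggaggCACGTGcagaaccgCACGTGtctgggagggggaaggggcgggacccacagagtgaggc

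Both strands of the windows were searched for the E-box CACGTG, the D-box (TTATGTAA or TTACGTAA), the ROR element (TAGGTCA or TGGGTCA), the CRX site TAATCC of photoreceptor genes and the cAMP response element TGACGTCA. The shown windows hold 1 E-box in Per1, 166 bases before the start, and 3 in Ciart, 116, 58 and 44 bases before it. No match to any of the 5 motifs was found in the shown windows of Dbp and Arr3, which says only that these letters are absent there. A window was available for 11300 of the 15167 tested genes, and 9.37% of them held the E-box in at least 1 window. Among the 14 clock genes outside the positive limb, 12 had a window and 5 of those held it, namely Bhlhe41, Ciart, Cry1, Per1 and Tef. These 14 were listed as E-box driven factors, so that share is no separate evidence of E-boxes in genes that differ. The test with time as a factor is described further on and was added after the data were seen. Among its called genes with a window the E-box was in 7 of 43 higher at dusk (16.3%) and 0 of 24 lower. The CRX site was in 1 of 43 higher (2.33%) and 4 of 24 lower (16.7%), against 6.48% of tested genes. Of the genes past the dusk against dawn test 0 of 5 higher and 0 of 1 lower held any of the 5 motifs. Among genes called for CT10 against CT22 the E-box was in 4 of 70 higher (5.71%) and 3 of 63 lower (4.76%). For CT14 against CT2 it was in 16 of 131 higher (12.2%) and 3 of 47 lower (6.38%). None of the matches in the shown windows overlapped another motif.

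Few transcripts passed the pooled test of dusk against dawn. The dusk against dawn test (edgeR quasi-likelihood F test with genotype as a covariate, adjusted p below 0.05) was passed by 8 of 15167 genes, or 0.0527%, of which 7 were higher at dusk (0.0462%) and 1 was lower (0.00659%). The higher genes were Arr3, Pcdh15, Dbp, Car3, Hcls1, Chst5 and the gene model Gm10241, and the lower gene was Ptprn. In each of the 8 the 4 dusk libraries did not overlap the 4 dawn libraries, which held for 713 of all tested genes (4.7%). At an unadjusted p below 0.05 there were 1190 genes, or 7.85% of those tested. DESeq2 called 25 genes, 13 higher and 12 lower.

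Arr3, cone arrestin, which ends the light signal of cones, gave the smallest p. Its level in cKO was 177.8 CPM at CT10 and 169.1 CPM at CT14, against 106.8 CPM at CT22 and 110.5 CPM at CT2. In WT it was 197.0 CPM at CT10 and 172.0 CPM at CT14, against 98.1 CPM at CT22 and 115.7 CPM at CT2. The lowest dusk library thus stood well above the highest dawn library. Dusk averaged 179 ± 12.6 CPM and dawn 107.8 ± 7.39 CPM (SD, n = 4 each), a 1.66-fold difference and a log2 difference of 0.73 ± 0.06 (SE, edgeR adjusted p = 0.000914). The levels at CT6 (161.2 CPM in cKO, 153.2 CPM in WT) and CT18 (140.6 CPM in cKO, 125.8 CPM in WT) lay between those of dusk and dawn. Arr3 was alone among 15 cone genes in passing, and 7 of the 15 had a positive difference, with a median of -0.03 against 0.00105 over all genes.

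Pcdh15 encodes a protocadherin of the hair cell tip link that is also found in photoreceptors and is mutated in Usher syndrome. It was at 141.3 CPM at CT10 and 137.6 CPM at CT14 in cKO, against 89.5 CPM at CT22 and 99.0 CPM at CT2. WT libraries had 154.0 CPM at CT10 and 142.3 CPM at CT14, against 86.1 CPM at CT22 and 99.2 CPM at CT2. The spread within a group was small beside the gap between them, and the log2 difference was 0.62 ± 0.06 (SE, edgeR adjusted p = 0.00122). Arr3 and Pcdh15 passed the test in all 20 alternatives that were run, including those that left out each library in turn, and no other gene called here did.

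Dbp, a transcription factor that binds D-boxes and passes the rhythm of the loop to other genes, was at 191.0 CPM at CT10 and 163.7 CPM at CT14 in cKO, against 115.2 CPM at CT22 and 138.3 CPM at CT2. Its WT levels were 175.2 CPM at CT10 and 166.2 CPM at CT14, against 104.9 CPM at CT22 and 116.2 CPM at CT2. In both genotypes CT10 was the highest and CT22 the lowest of these 4 times. The log2 difference was 0.56 ± 0.07 (SE, edgeR adjusted p = 0.0145). The call was lost without either CT10 library or either CT22 library, where the adjusted p reached 0.121.

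Ptprn, the receptor-type phosphatase IA-2 of dense-core vesicles in neurons and endocrine cells, was the gene that fell at dusk. It was at 76.6 CPM at CT10 and 82.2 CPM at CT14 in cKO, against 135.9 CPM at CT22 and 107.2 CPM at CT2. In WT eyes it stood at 74.1 CPM at CT10 and 79.2 CPM at CT14, against 107.5 CPM at CT22 and 116.9 CPM at CT2. The 4 dusk libraries lay close together, and the dawn libraries were more spread. The log2 difference was -0.58 ± 0.07 (SE, edgeR adjusted p = 0.0114). At CT18 it stood at 158.1 CPM in cKO and 119.6 CPM in WT, in both genotypes above every dusk library, and the call was lost without either CT10 library.

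The other genes that rose were less abundant or less stable. Car3, a cytosolic carbonic anhydrase, averaged 88.8 ± 10.7 CPM at dusk and 53.3 ± 6.61 CPM at dawn (SD, n = 4 each), a log2 difference of 0.74 ± 0.10 (SE). Hcls1, an actin regulator of blood cells, averaged 33.4 ± 0.639 CPM at dusk and 24.0 ± 1.7 CPM at dawn (0.48 ± 0.07). Chst5, a sulfotransferase for carbohydrate chains such as corneal keratan sulfate, averaged 9.47 ± 1.97 CPM at dusk and 4.93 ± 0.641 CPM at dawn (0.93 ± 0.14). Gm10241, picked out after its values were seen, had 80 counts at CT10 and 60 at CT14 in cKO and 113 and 115 in WT at dusk, against 39 at CT22 and 23 at CT2 in cKO and 24 and 18 in WT at dawn. It is an unnamed gene model, which could share reads with a copy elsewhere, so its value is uncertain. The edgeR adjusted p was 0.0145 for Car3, 0.025 for Gm10241 and Hcls1 and 0.0409 for Chst5, and the 4 passed 13, 11, 8 and 7 of the 20 alternatives in that order.

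**Figure D1:**
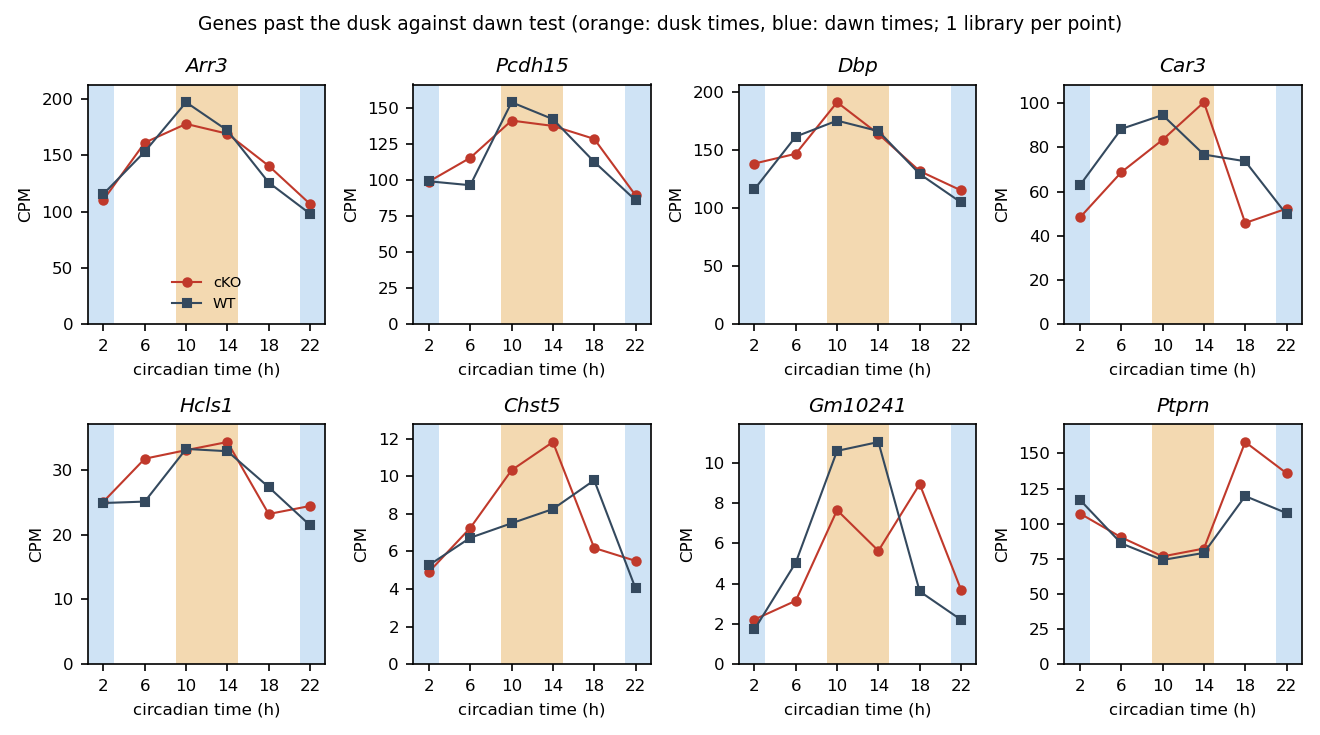
Level in CPM (vertical axes, from 0) against circadian time in hours for the 8 genes past the dusk against dawn test, with circles for cKO, squares for WT and 1 library of 3 pooled mice per point, so no error bars. In every panel the 4 points over the orange dusk band lie apart from the 4 over the blue dawn bands, with Ptprn lower at dusk and the others higher.

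The genes just outside the threshold were Egln3 and Zfp385b, both lower at dusk with an edgeR adjusted p of 0.0658, and Per1, Per2, Pcnx3 and Pde8b, each at 0.0713. Egln3, a prolyl hydroxylase that marks hypoxia-inducible factors for decay, averaged 70.3 ± 7.96 CPM at dusk and 96.8 ± 5.52 CPM at dawn (SD, n = 4 each). Pde8b, which breaks down cAMP, averaged 66.4 ± 1.58 CPM at dusk and 81.8 ± 4.08 CPM at dawn.

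Within a genotype the same contrast had 2 libraries on each side and called less. In cKO no gene passed the edgeR test, with 454 genes at an unadjusted p below 0.05 and a smallest adjusted p of 0.211, and limma called 0 as well. In WT 3 genes passed, all higher at dusk (0.0198% of those tested): Arr3, Pcdh15 and Gm10241, with 867 at an unadjusted p below 0.05. The test of the difference between genotypes called 0 genes by edgeR and 0 by limma, with 320 at an unadjusted p below 0.05 by edgeR. For Arr3 the log2 difference was 0.68 ± 0.09 in cKO and 0.79 ± 0.09 in WT, and for Ptprn -0.61 ± 0.11 in cKO and -0.55 ± 0.11 in WT (SE). Gm10241 stood furthest apart of the 8, at 1.16 ± 0.28 in cKO and 2.45 ± 0.28 in WT, a difference of -1.29 ± 0.41 that did not pass (edgeR adjusted p = 1). The smallest p-values of the genotype difference belonged to mt-Atp8, Cd247, Ip6k2, Stra6, Galnt3 and Col6a6, each with an edgeR adjusted p of 1. Ip6k2, an inositol phosphate kinase, was at 115.2 CPM at CT10 and 107.7 CPM at CT14 in cKO, against 119.3 CPM at CT22 and 121.2 CPM at CT2. In WT it was at 166.1 CPM at CT10 and 208.8 CPM at CT14, against 144.3 CPM at CT22 and 119.8 CPM at CT2.

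The clock loop lay mostly on the dusk side, by modest amounts. Of the 14 clock genes outside the positive limb 13 had a positive difference, with a median of 0.22 on the log2 scale against 0.00105 over all genes, and Dbp alone passed. In 8 of the 14 every dusk library was above every dawn library, which held for 2.33% of all tested genes. These were Per1, Per2, Nr1d1, Nr1d2, Bhlhe40, Bhlhe41, Dbp and Tef. None of the 5 listed genes of the positive limb passed. Their median was -0.17, and in Npas2 every dusk library was below every dawn library (2.37% of all tested genes). Shifts of this size were not particular to the clock. Of 22 cell cycle genes 3 had a positive difference (median -0.18), and 6 had every dusk library below every dawn library. The same held for 5 of 25 genes of cholesterol and fatty acid synthesis and 4 of 13 mitochondrially encoded genes. The median was -0.20 for red blood cell genes and 0.21 for immediate early genes. No member of these lists passed.

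Among the repressors, Per1 was at 69.8 CPM at CT10 and 87.0 CPM at CT14 in cKO, against 61.7 CPM at CT22 and 56.1 CPM at CT2. WT libraries had 75.5 CPM at CT10 and 91.5 CPM at CT14, against 50.8 CPM at CT22 and 58.5 CPM at CT2. CT14 was its highest time in both genotypes. The log2 difference was 0.51 ± 0.09 (SE, edgeR adjusted p = 0.0713). Per2 was at 29.4 CPM at CT10 and 34.2 CPM at CT14 in cKO and 30.3 and 32.6 CPM in WT, against 22.8 CPM at CT22 and 24.4 CPM at CT2 in cKO and 23.8 and 20.1 CPM in WT, a difference of 0.47 ± 0.08 (SE). Per3 differed by 0.14 ± 0.06, Cry1 by 0.11 ± 0.07 and Cry2 by 0.09 ± 0.06, and in these 3 the groups overlapped. The REV-ERB genes Nr1d1 (0.18 ± 0.05) and Nr1d2 (0.25 ± 0.06) and the DEC repressors Bhlhe40 (0.19 ± 0.05) and Bhlhe41 (0.25 ± 0.07) did not overlap and did not pass.

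Ciart, a repressor of CLOCK and BMAL1, had the highest estimate of the loop and a wide error, 0.63 ± 0.19 (SE, edgeR adjusted p = 0.486). In cKO it stood at 14.4 CPM at CT10 and 11.0 CPM at CT14, against 8.43 CPM at CT22 and 13.2 CPM at CT2, so its CT14 and CT2 levels were in the other order there. Its WT levels were 17.3 CPM at CT10 and 16.5 CPM at CT14, against 6.60 CPM at CT22 and 10.1 CPM at CT2. Of the D-box factors beside Dbp, Tef differed by 0.25 ± 0.05 without overlap and Hlf by 0.07 ± 0.05 with overlap. Nfil3, which represses through the D-box, was the 1 member of the 14 with a negative value, -0.14 ± 0.11 (SE).

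In the positive limb Npas2 was at 3.15 CPM at CT10 and 3.75 CPM at CT14 in cKO, against 5.12 CPM at CT22 and 6.16 CPM at CT2. In WT eyes it stood at 4.03 CPM at CT10 and 3.07 CPM at CT14, against 5.23 CPM at CT22 and 7.09 CPM at CT2. Its log2 difference of -0.75 ± 0.17 did not pass (SE, edgeR adjusted p = 0.281). Arntl differed by -0.17 ± 0.07 and Clock by -0.19 ± 0.06. The ROR genes Rora (-0.01 ± 0.06) and Rorb (0.01 ± 0.12) were near 0, and the sign of each depended on the alternative.

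**Figure D2:**
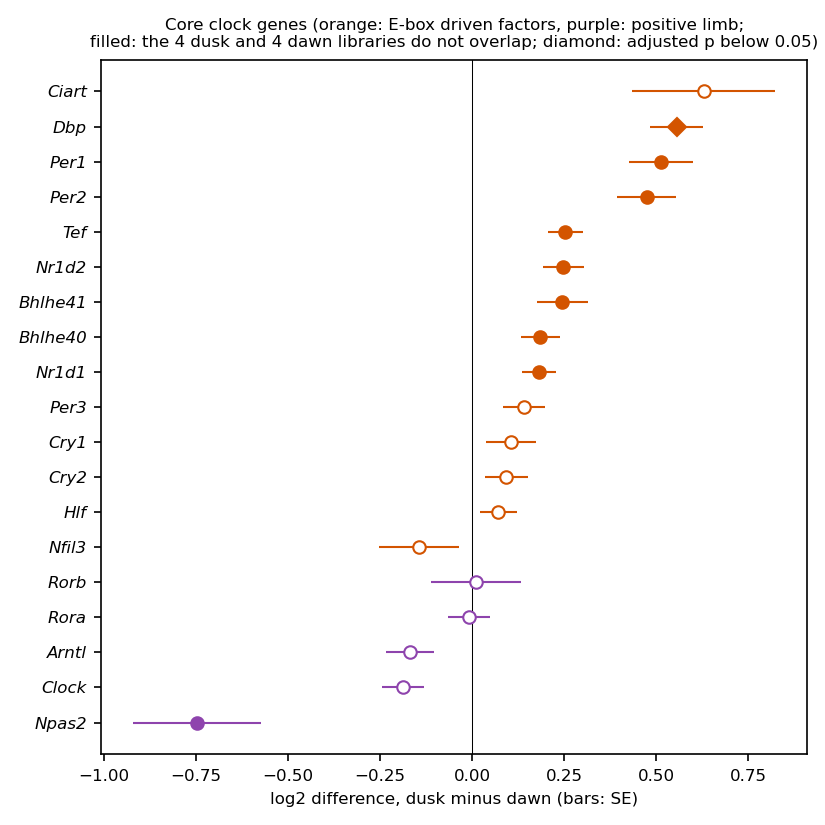
Log2 difference of dusk minus dawn with its SE (horizontal axis) for 19 core clock genes (vertical axis), in orange for the 14 outside the positive limb and in purple for 5 of the positive limb. Of the orange genes 13 lie right of 0 and Dbp alone is drawn as a diamond, past the test.

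The contrast is the mean of a pair of contrasts between times 12 h apart, CT10 against CT22 and CT14 against CT2, and these were tested in a model with time as a factor. CT10 against CT22 called 185 genes (1.22%), 99 higher (0.653%) and 86 lower (0.567%) at CT10. CT14 against CT2 called 234 genes (1.54%), 170 higher (1.12%) and 64 lower (0.422%) at CT14. These contrasts use different libraries, and they shared 34 calls, 18.4% of the first set and 14.5% of the second. Of the 34, 11 moved the same way and 23 moved in opposite directions. All 8 genes of the pooled test were among the 11, together with Egln3, BB114814 and Hist2h2aa2. The pooled test uses the same libraries and counts disagreement between the pairs as spread, so that overlap is no separate evidence. Hist2h2aa2, a histone gene with near-identical copies, had no count in either CT10 library, against 77 and 130 counts at CT22, so its level is uncertain.

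With time as a factor the estimated coefficient of variation was 5.46%, against 7.59% in the fit with 2 phases. In the fit with 2 phases, differences between the times of a group count as spread. With time as a factor, each genotype has a single library at each time. The spread there thus mixes variation between pools with any difference between genotypes in the course over time. The mean of the dusk times minus the mean of the dawn times then called 93 genes (0.613%), 61 higher (0.402%) and 32 lower (0.211%), a setting added after the data were seen. The same contrast over all 12 libraries called 67 genes, or 0.427%. Of the 14 clock genes outside the positive limb 6 rose under it: Per1 (0.50 ± 0.06), Per2 (0.47 ± 0.07), Nr1d2 (0.25 ± 0.04), Bhlhe41 (0.24 ± 0.05), Dbp (0.56 ± 0.05) and Tef (0.25 ± 0.04, SE). Of the 93 genes 30 also passed the test of the difference between the pairs, so for these the mean covers unlike pairs. Egr1 is such a gene: its mean difference was 1.46 ± 0.13 with time as a factor and 2.51 ± 0.78 with 2 phases (SE).

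The difference between the pairs was tested itself, again after the data were seen, and 393 genes passed (2.59%), more than in either pair. In 377 of these the pairs had opposite signs. Genes picked for a large difference between the pairs tend to have opposite signs, so the 377 is no separate evidence of opposite movement. The count of 393 was 591 without a filter on low counts and ran from 63 without cKO at CT10 to 629 without WT at CT14. For 157 of the genes (1.04%) CT10 minus CT22 was above CT14 minus CT2, and for 236 (1.56%) it was below. Irf7, a transcription factor of the interferon response, was the clearest case of opposite movement. In cKO it was at 32.5 CPM at CT10, against 64.6 CPM at CT22, and at 60.5 CPM at CT14, against 32.5 CPM at CT2. In WT it was at 37.0 CPM at CT10, against 66.5 CPM at CT22, and at 72.9 CPM at CT14, against 37.8 CPM at CT2. Each pair thus differed by close to 1 on the log2 scale, -0.92 ± 0.08 for CT10 against CT22 and 0.92 ± 0.08 for CT14 against CT2 (SE), while dusk minus dawn was 0.01 ± 0.26. Both calls held without any of the 4 libraries of the pair.

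**Figure D3:**
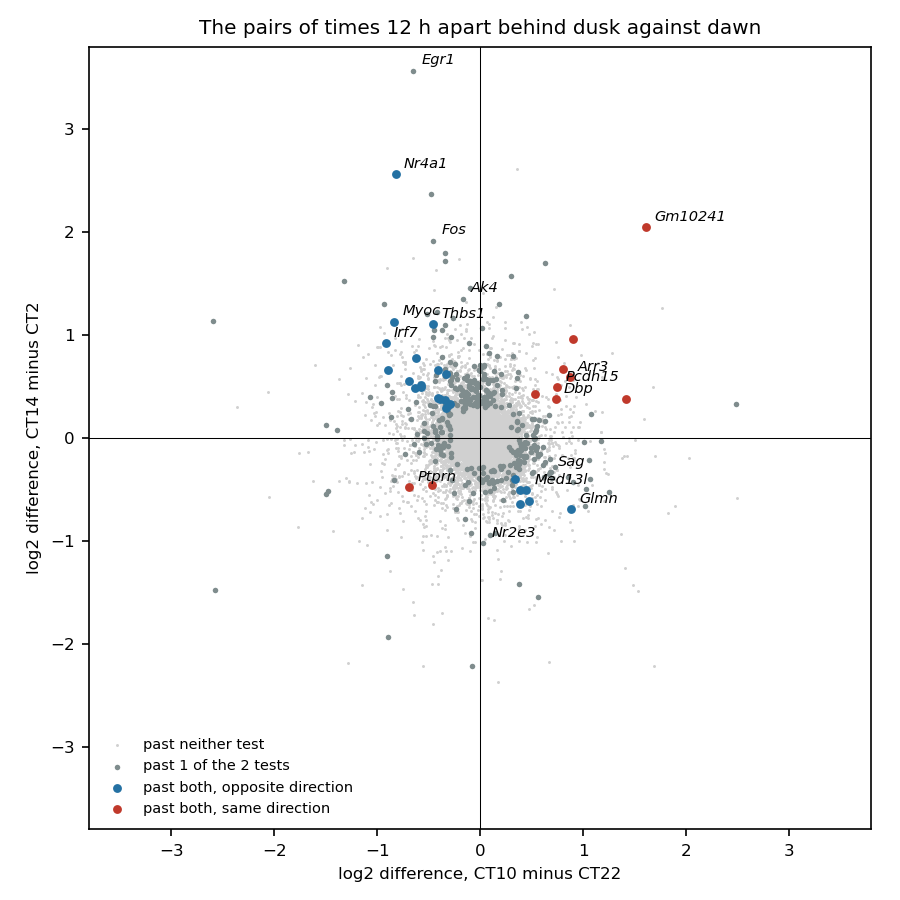
Log2 difference of CT10 minus CT22 (horizontal axis) against that of CT14 minus CT2 (vertical axis) for each tested gene, with 5 genes outside the axis range of 3.8. The 11 red genes passed both tests in the same direction and the 23 blue genes, among them Irf7, Nr4a1 and Med13l, passed both in opposite directions.

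Opposite calls were also made for genes known from outflow tissue, ciliary epithelium and photoreceptors. Myoc, a secreted protein of the outflow tract and ciliary body, differed by -0.84 ± 0.12 for CT10 against CT22 and by 1.13 ± 0.12 for CT14 against CT2. Thbs1, a matrix protein that activates TGF-beta, differed by -0.46 ± 0.07 and 1.10 ± 0.07, Sik2, a salt-inducible kinase, by -0.69 ± 0.09 and 0.55 ± 0.09, and the water channel gene Aqp1 by -0.33 ± 0.07 and 0.62 ± 0.07, in the same order. Drd4, the dopamine receptor of photoreceptors, differed by -0.63 ± 0.11 and 0.78 ± 0.11. In the other direction, Med13l, a subunit of the Mediator kinase module, differed by 0.44 ± 0.06 for CT10 against CT22 and by -0.51 ± 0.06 for CT14 against CT2. Fscn2, an actin-bundling protein of photoreceptors, differed by 0.38 ± 0.08 and -0.65 ± 0.08, and Glmn, an inhibitor of cullin ubiquitin ligases, by 0.88 ± 0.13 and -0.69 ± 0.13 (SE). The CT10 against CT22 call was lost without cKO at CT10 in all 8 of these genes, without WT at CT10 too in Sik2, Drd4, Aqp1, Glmn, Thbs1 and Fscn2, without cKO at CT22 in Drd4, Aqp1, Thbs1 and Fscn2, and without WT at CT22 in Glmn, Thbs1 and Fscn2. The CT14 against CT2 call was lost without WT at CT2 in Med13l and Fscn2, without cKO at CT2 in Sik2, Drd4 and Glmn, and without cKO at CT14 in Glmn. In Med13l the levels at CT10 (108.2 CPM in cKO, 100.4 CPM in WT) and CT2 (111.7 CPM in cKO, 113.0 CPM in WT) lay close together, as did those at CT14 (78.9 and 79.1 CPM) and CT22 (76.3 and 76.9 CPM).

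Immediate early genes, the fast transcriptional reply of cells to neural activity and growth factors, stood out in CT14 against CT2. Of 21 tested members 9 rose at CT14 against CT2, against 1.12% of all tested genes, and none fell, with a median of 0.49 against -0.00187 over all genes, and 1 fell and none rose at CT10 against CT22 (median -0.16). Egr1, a zinc finger factor, was at 102.2 CPM in cKO and 157.1 CPM in WT at CT14, against 10.2 CPM in cKO and 11.4 CPM in WT at CT2. Its log2 difference of 3.57 ± 0.14 (SE, edgeR adjusted p = 5.31e-09) had the smallest p of that pair. Nr4a1, an orphan nuclear receptor, was at 65.7 CPM in cKO and 77.8 CPM in WT at CT14, against 10.8 CPM in cKO and 13.4 CPM in WT at CT2 (2.57 ± 0.13). Fos was at 40.2 CPM in cKO and 45.6 CPM in WT at CT14, against 10.0 CPM in cKO and 12.7 CPM in WT at CT2 (1.92 ± 0.12). At CT10 the 3 genes stood at 7.36 to 12.9 CPM, so the dusk libraries of each fell into a low pair and a high pair. At CT18 levels lay below CT14 and above CT2 in both genotypes. Egr1 was then at 31.57 CPM in cKO and 42.47 CPM in WT, Nr4a1 at 40.89 and 53.77 CPM and Fos at 20.35 and 27.84 CPM. Ctgf, a matricellular growth factor, rose by 1.46 ± 0.12 and Junb by 0.49 ± 0.08 at CT14 against CT2. In WT Ctgf was at 140.5 CPM at CT18, above its 128.9 CPM at CT14. In cKO it was at 66.66 CPM at CT18, below its 123 CPM at CT14. The count of 9 was 4 without WT at CT2, 6 without cKO at CT2, 8 without WT at CT14 and 9 without cKO at CT14, and Egr1, Nr4a1, Fos and Ctgf passed each time. The gene that fell at CT10 against CT22 was Nr4a1, and that call was lost without WT at CT10, cKO at CT10 or cKO at CT22 (edgeR adjusted p of 0.171, 0.258 and 0.107).

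Further genes rose at CT14 against CT2 with CT10 and CT22 close to each other. Ak4, a mitochondrial adenylate kinase, was at 79.6 CPM in cKO and 99.8 CPM in WT at CT14, against 27.5 CPM in cKO and 43.1 CPM in WT at CT2 (1.35 ± 0.11, SE). Slc16a3, which exports lactate, differed by 1.17 ± 0.10, Egln1, the main oxygen-sensing prolyl hydroxylase, by 0.71 ± 0.07 and Jmjd6, an oxygen-dependent hydroxylase of the cell nucleus, by 0.65 ± 0.07. Tcap, a sarcomere protein that caps titin, differed by 1.30 ± 0.10 and Edn3, a vasoactive peptide, by 0.92 ± 0.09. For these 6 genes CT10 minus CT22 lay between -0.27 and 0.19 and did not pass. Each passed CT14 against CT2 without any of the 4 libraries of the pair. The prolyl hydroxylase gene Egln3 went the other way at CT14 against CT2 (-0.45 ± 0.10, SE, edgeR adjusted p = 0.0421). Its call was lost without WT at CT2, WT at CT14 or cKO at CT2.

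**Figure D4:**
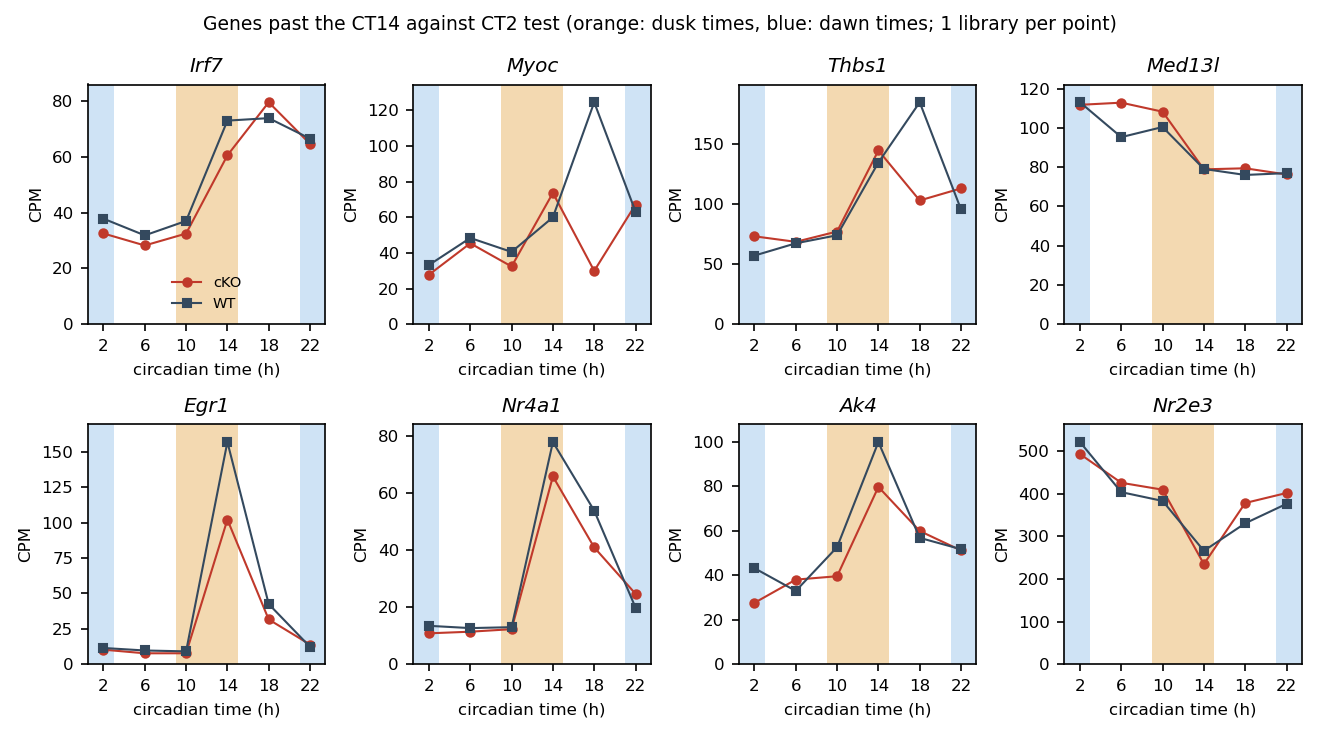
Level in CPM (vertical axes, from 0) against circadian time in hours for 8 genes past the test of CT14 against CT2, with circles for cKO, squares for WT and 1 library per point. Egr1, Nr4a1 and Ak4 are highest at CT14, Nr2e3 is lowest there, and Irf7 and Med13l split CT14, CT18 and CT22 from CT2, CT6 and CT10.

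The rod list had medians of opposite sign in the pairs, and few of its members passed. Among 26 rod genes 22 had a positive difference for CT10 against CT22 (median 0.13, 3 higher and 1 lower past the test), and 2 did for CT14 against CT2 (median -0.11, 0 higher and 2 lower). Of all tested genes 0.653% passed as higher and 0.567% as lower for CT10 against CT22, with a median of -0.000664. For CT14 against CT2 1.12% passed as higher and 0.422% as lower, with a median of -0.00187. The count of 3 for CT10 against CT22 was 0 without cKO at CT10 (16 of 26 positive, median 0.05), 1 without WT at CT22 (17 positive, median 0.04) and 2 without either other library of the pair. Over all 4 times the median was 0.01. Sag, rod arrestin, was at 5153 CPM in cKO and 4034 CPM in WT at CT10, against 3205 CPM in cKO and 2540 CPM in WT at CT22 (0.68 ± 0.08, SE). Guca1b, a calcium sensor of the guanylate cyclases, rose by 0.61 ± 0.08 in that pair. Neither passed without cKO at CT10, and Guca1b did not pass without WT at CT22. Nr2e3, a rod factor that represses cone genes, was at 234.9 CPM in cKO and 266.1 CPM in WT at CT14, against 493.5 CPM in cKO and 521.8 CPM in WT at CT2. Its log2 difference of -1.02 ± 0.08 (SE, edgeR adjusted p = 6.49e-06) passed without any 1 of the 4 libraries, and its levels at CT10 (409.8 and 383.4 CPM) and CT22 (402.0 and 376.5 CPM) were alike. Without cKO at CT14, 15 of the 26 rod genes were positive in CT14 against CT2, with a median of 0.02, so the direction of the list there rested on that library, and without WT at CT14 the median was -0.28 with 5 members lower.

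Other genes passed for CT10 against CT22 and not for CT14 against CT2. Rims2, a scaffold of the presynaptic active zone, was at 120.6 CPM in cKO and 128.8 CPM in WT at CT10, against 82.3 CPM in cKO and 90.2 CPM in WT at CT22 (0.53 ± 0.06, SE). Its difference for CT14 against CT2 was 0.00 ± 0.06. Rbm3, a cold-inducible RNA-binding protein, rose by 0.67 ± 0.07 in CT10 against CT22, and its 0.22 ± 0.07 for CT14 against CT2 did not pass. Both values had the same direction. Its dusk minus dawn difference was 0.45 ± 0.08 in the pooled test (SE, edgeR adjusted p = 0.089). With time as a factor that mean passed (edgeR adjusted p = 0.000284). Pcp4l1 fell by 0.62 on the log2 scale (SE 0.07) at CT10 against CT22 and differed by 0.04 ± 0.07 in the other pair. The 3 calls for CT10 against CT22 held without any of the 4 libraries of the pair.

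Several genes of sterol synthesis fell at CT14 against CT2. Of 25 genes of cholesterol and fatty acid synthesis 4 passed as lower (Hmgcs1, Idi1, Nsdhl and Insig1), against 0.422% of all tested genes, and none as higher. The median was -0.19, against -0.00187 over all genes. For CT10 against CT22 there were 0 calls and the median was 0.01. Hmgcs1, an early enzyme of the pathway, was at 151.6 CPM in cKO and 145.1 CPM in WT at CT14, against 198.6 CPM in cKO and 189.3 CPM in WT at CT2. The count of 4 was 1 without either CT2 library and 2 without WT at CT14. Hmgb2, a chromatin protein, differed by -0.93 ± 0.11 (SE) at CT14 against CT2, and that call held without any of the 4 libraries.

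The clock was then followed in each pair. Of the 14 outside the positive limb, 6 passed as higher at CT14 against CT2 (Per1, Per2, Nr1d2, Bhlhe41, Dbp and Tef) and 2 at CT10 against CT22 (Dbp and Ciart). Of all tested genes 1.12% and 0.653% did so, in the same order. The 6 were 0 without WT at CT2, 1 without cKO at CT2 and 3 without WT at CT14. The 2 were 3 without cKO at CT22 and 1 without any other library of the pair, since the call of Ciart was lost and that of Dbp held. The medians of the 14 were 0.23 for CT14 against CT2 and 0.15 for CT10 against CT22, against -0.00187 and -0.000664 over all genes. No member passed the test of the difference between the pairs. In the positive limb Rorb was lower at CT10 than at CT22 (edgeR adjusted p = 0.0499), a call lost without any 1 of the 4 libraries of the pair, with adjusted p-values of 0.084 to 0.453. It passed the difference between the pairs (adjusted p = 0.00562).

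Some markers of other tissues also passed in the pairs. All 27 lens genes were higher at CT10 than at CT22, with 10 past the test, against 0.653% of all tested genes, and a median of 0.44. The count was 0 without WT at CT22, without WT at CT10 or without cKO at CT10, and 13 without cKO at CT22. The mean centred log2 level of the lens list was -1.10 in WT at CT22 and -0.201 in cKO at CT22, and it ran from -0.13 to 0.501 in the other 6 libraries of the comparison. For CT14 against CT2 1 of 27 was positive and none passed (median -0.22). Without cKO at CT14 7 were positive (median -0.10), and without WT at CT14 10 passed as lower (median -0.33). The lens median for dusk minus dawn was 0.07, and it ran from -0.08 without WT at CT22 to 0.22 without WT at CT2. Of 18 genes of stroma and sclera 6 rose at CT14 against CT2, against 1.12% of all tested genes (median of the list 0.41), with 0 without WT at CT2, 1 without cKO at CT2, 2 without cKO at CT14 and 11 without WT at CT14. Of 23 muscle genes 3 rose there, set against the same 1.12% (median 0.27), with 0 without WT at CT2 (median 0.14) and 1 without cKO at CT2. The stroma level was -0.191 in cKO and -0.356 in WT at CT2, the lowest for its genotype among these times except cKO at CT10 (-0.253), and whether the tissue makeup of the pools had a part in the other differences of these pairs was not tested. In the pooled dusk against dawn test no member of the lens, stroma or muscle lists passed. Car3, which did pass, was counted in the list of ciliary body and outflow. Whether other tissues of the eye contribute to its level was not tested.

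**Figure D5:**
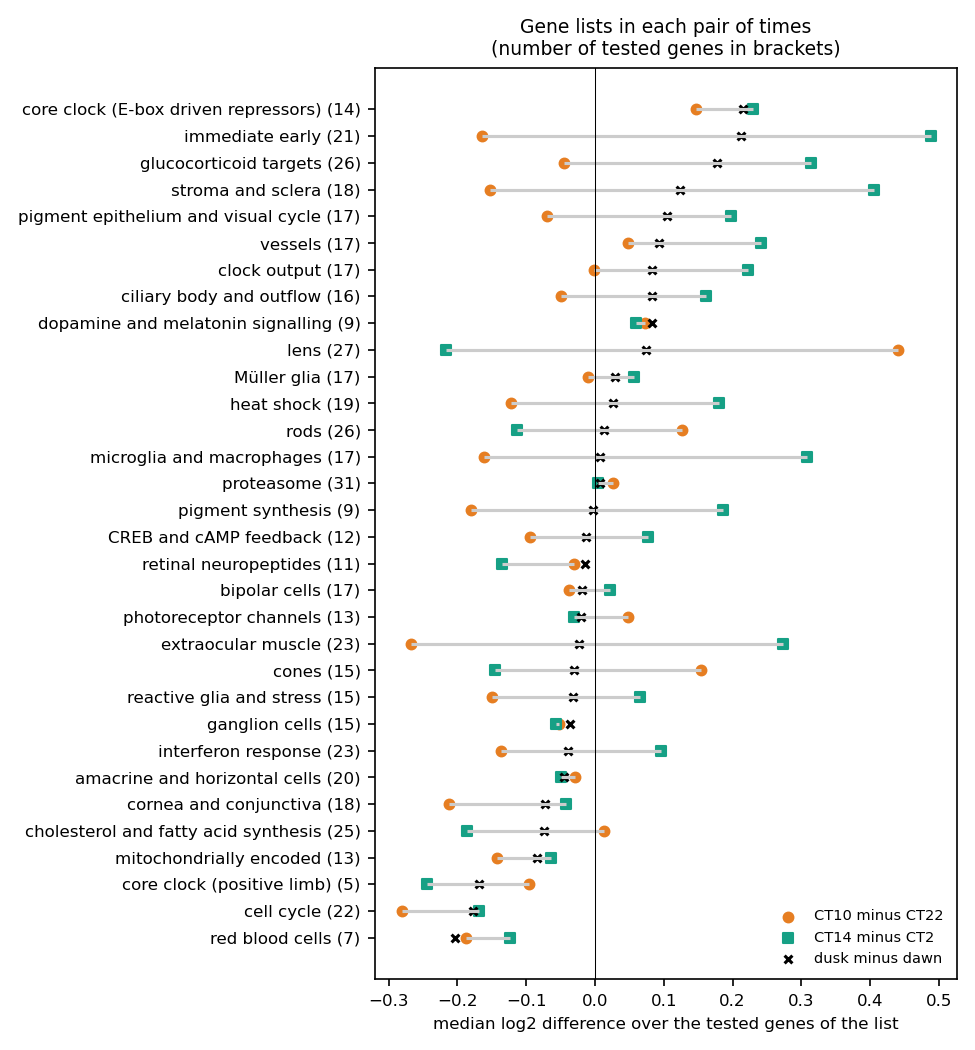
Median log2 difference over the tested genes of each of 32 lists (horizontal axis), as circles for CT10 minus CT22, squares for CT14 minus CT2 and crosses for dusk minus dawn. The clock genes outside the positive limb are positive in both pairs, while lens, rod, cone, stroma, muscle and immediate early genes have medians of opposite sign in the pairs.

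Known targets of the glucocorticoid receptor, the product of Nr3c1, were examined as a list that also holds Per1 and Dusp1 of other lists. Of 26 tested members none passed dusk against dawn, 21 were positive and the median was 0.18, against 0.00105 over all genes. For CT14 against CT2 6 were higher (Tsc22d3, Per1, Klf9, Ddit4, Sult1a1 and Dusp1), against 1.12% of all tested genes. For CT10 against CT22 Mt2 was lower, against 0.567% of all tested genes. Tsc22d3, an anti-inflammatory leucine zipper protein, differed by 0.60 ± 0.07 at CT14 against CT2 and by 0.04 ± 0.07 at CT10 against CT22 (SE), and the first value did not pass without WT at CT2. The count of 6 was 0 without WT at CT2, 3 without cKO at CT2, 3 without WT at CT14 and 8 without cKO at CT14. The call of Mt2 was lost without WT at CT10, WT at CT22 or cKO at CT10 (edgeR adjusted p of 0.149, 0.303 and 0.392). Within genotypes the median of the 26 for dusk minus dawn was 0.02 in cKO and 0.25 in WT. Over all genes it was 0.00086 in cKO and 0.00226 in WT. No member of the list passed the test of the difference between genotypes.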

How the data were processed

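RNA sequencing counts of whole eyes were analysed in the 8 libraries of CT10, CT14, CT22 and CT2 out of 12. The values are raw counts per gene as deposited by the authors. The sources used here give no aligner, counting tool, strand setting or genome build. Of 32544 entries 27 were left out because their names had turned into dates (median 0.158% of counts), and 15167 of 32517 passed the filter of edgeR (filterByExpr by group, minimum count 10, minimum total 15). Counts were normalised by TMM and tested by the quasi-likelihood F test of edgeR 4.0.16 (R 4.3.3) as dusk minus dawn with genotype as a covariate (5 residual degrees of freedom), or with the 4 times as levels of a factor (3 residual degrees of freedom). A model of the 4 genotype and phase cells (4 residual degrees of freedom) gave the contrasts within genotypes. Adjustment was by Benjamini-Hochberg across all tested genes, and the threshold was 0.05. CPM values come from TMM over the 12 libraries. DESeq2 1.42.0 and limma 3.58.1 were alternatives, beside other scaling, no filter, no genotype term, more libraries and left-out libraries.

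Named were the genes past the test (12 largest and 10 with the smallest p in each direction, of those with an established name and a mean log2 CPM not below 0), the listed core clock genes, up to 4 members per list past the test and the 6 smallest p-values of the genotype difference. Genes named for the pairs of times were picked after their values were seen. The members and the 32 lists were chosen with earlier results of these data known. The scripts were tested on simulated data with known changes. Some genes are not reported here and were left out of the lists.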

Additional observations from a re-analysis of the deposited data

Results flagged for a closer look

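In 7 of 222 groups of 4 libraries examined, the highest or lowest library stood far from the rest (by Dixon's gap over range at 95%), while chance gives about 1 in 20 groups. All 7 were in the dawn group. Rorb was at 227.5 CPM in cKO at CT2, against 288.9 to 296.2 CPM in the other dawn libraries. Nfil3 was at 20.56 CPM in cKO at CT22, against 15.98 to 16.56 CPM. Ip6k2 was at 144.3 CPM in WT at CT22, against 119.3 to 121.2 CPM. Egln1 was at 96.05 CPM in cKO at CT2, against 117.1 to 118.6 CPM. Ddit4, a stress-induced inhibitor of mTOR signalling, was at 78.13 CPM in WT at CT2, against 108.5 to 112.7 CPM. The mean centred log2 level of the red blood cell list was 0.341 in WT at CT22, against -0.00244 to 0.0448, and that of the cell cycle list was 0.0811 in WT at CT2, against 0.139 to 0.145.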

How the results depend on the processing

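The 8 dusk against dawn calls were 19 with no filter on low counts, 25 by DESeq2, 93 with time as a factor in 8 libraries, 67 with time as a factor in 12 libraries, 14 without both CT14 libraries, 15 without both CT2 libraries and 2 to 8 when each library was left out (2 without WT at CT10, 3 without WT at CT22 or cKO at CT10, 4 without cKO at CT22). Without a filter the calls were 4 in cKO, 5 in WT, 399 for CT10 against CT22, 394 for CT14 against CT2 and 591 for the difference between the pairs. With each library left out they ran from 0 to 5 in cKO, 0 to 2 in WT, 0 to 1 for the genotype difference, 14 to 118 for CT10 against CT22, 38 to 288 for CT14 against CT2 and 63 to 629 for the difference between the pairs. Rora changed sign, from -0.0634 to 0.0221 over left-out libraries, 0.0522 without both CT10 and 0.0133 without both CT22 libraries. So did Rorb, from -0.115 to 0.104 over left-out libraries, -0.00715 by limma, -0.0101 with time as a factor in 8 libraries and -0.011 in 12, -0.267 without both CT14 and -0.0671 without both CT2 libraries. No other clock gene or called gene changed sign in these alternatives. Why counts moved was not tested, except that left-out libraries leave fewer samples. With 2 libraries per genotype and phase, differences between genotypes are measured with little precision.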
